A study of Mus musculus with 12 samples.

Results

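Collagen chain genes were followed in C57MG cells, a mouse mammary epithelial line, after treatment with Rspo2, Wnt3a or both proteins. A chain gene was any array feature named Col, a type number, the letter a and a chain number, and the probe with the highest mean signal over all arrays stood for the gene. The array carried 78 such probes for 40 genes among 41174 probes. Of the 40 genes, 29 were detected, which here means that in 1 group or more every array had the probe well above background. These 29 probes were among 22751 detected probes that were tested together.

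Cells received bovine serum albumin (BSA) as carrier control, recombinant human Rspo2 at 100 ng/ml, recombinant mouse Wnt3a at 100 ng/ml, or both proteins together, each for 24 h, with 3 biological replicates a group. Wnt3a is a secreted ligand of the Wnt/β-catenin pathway, and Rspo2 is an R-spondin, a secreted protein that strengthens the response of cells to Wnt ligands. RNA was measured on 12 one-colour oligonucleotide arrays. Each array's signals were divided by its own 75th percentile, so a scaled signal of 1 is the 75th percentile of that array, and changes are differences of log2 scaled signal between group means with their standard errors (SE). The 75th percentile lay between 774 and 1146 intensity units over the 12 arrays.

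Collagens are triple helices of 3 chains. Each kind of chain is encoded by its own gene, and the chains of a helix can be alike or differ. Fibrillar collagens (types I, II, III, V, XI, XXIV and XXVII) build the cross-striated fibrils of stroma, type IV builds the sheet-like network of the basement membrane under epithelia, and types XV and XVIII sit at basement membranes as well. The other chains include the fibril-associated collagens, known as FACITs, which decorate fibrils (types IX, XII, XIV, XVI, XIX, XX and XXII), the beaded filaments of type VI, the anchoring fibrils of type VII, the short-chain networks of types VIII and X, and the membrane-spanning types XIII, XVII, XXIII and XXV. In the mammary gland the fibrils are laid down mainly by stromal fibroblasts, while epithelial and myoepithelial cells contribute basement membrane.

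The 12 arrays lay on 3 slides. The BSA arrays shared the first slide with Rspo2 replicate 1. The other Rspo2 arrays were on the second slide beside Wnt3a replicates 1 and 2, and the combination arrays were on the third beside Wnt3a replicate 3, so BSA was never on a slide with Wnt3a or the combination. The 4 arrays of the second slide stood apart on the second principal component, at -29.4 to -24.8. Of the luminal epithelial markers, 1 of 5 was detected (the keratin Krt8), and the adhesion protein Cdh1 was well above background on 0 arrays. The basal or myoepithelial markers Krt5, Krt14, Trp63 and Acta2 were all detected, as were 6 of 8 mesenchymal markers (Vim, Pdgfra, Pdgfrb, Fn1, Dcn and Cdh2). Summed scaled signals weigh the brightest genes of a list most and can hide changes of dimmer ones. The summed scaled signal of the mesenchymal list was 193 to 207 in BSA arrays, 198 to 204 after Rspo2, 205 to 210 after Wnt3a and 190 to 198 in the combination. The basal list summed to 132 to 140 in BSA arrays, 170 to 192 after Rspo2, 184 to 205 after Wnt3a and 219 to 257 in the combination. Its members did not share a direction: with Rspo2 and Wnt3a alone Acta2 rose (log2 change 0.43 and 0.48) and Krt5 fell (-0.84 and -0.57). In bulk RNA, fewer cells of a type and less RNA per cell cannot be told apart.

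Detection differed between the classes. Of the 11 fibrillar genes 10 were detected, of the 8 basement membrane genes 6, and of the other 21 genes 13. The 11 undetected genes were Col24a1 (fibrillar), Col4a3 and Col15a1 (basement membrane), and Col8a2, Col9a1, Col10a1, Col13a1, Col14a1, Col19a1, Col20a1 and Col28a1, of which 6 were well above background on 0 of 12 arrays. For Col9a1 and Col13a1 the flag was set on 2 of the 3 combination arrays. In contrast, 25 genes were well above background on all 12 arrays, and Col5a2, Col11a1, Col25a1 and Col27a1 on some. No collagen probe was saturated on any array.

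**Figure D1:**
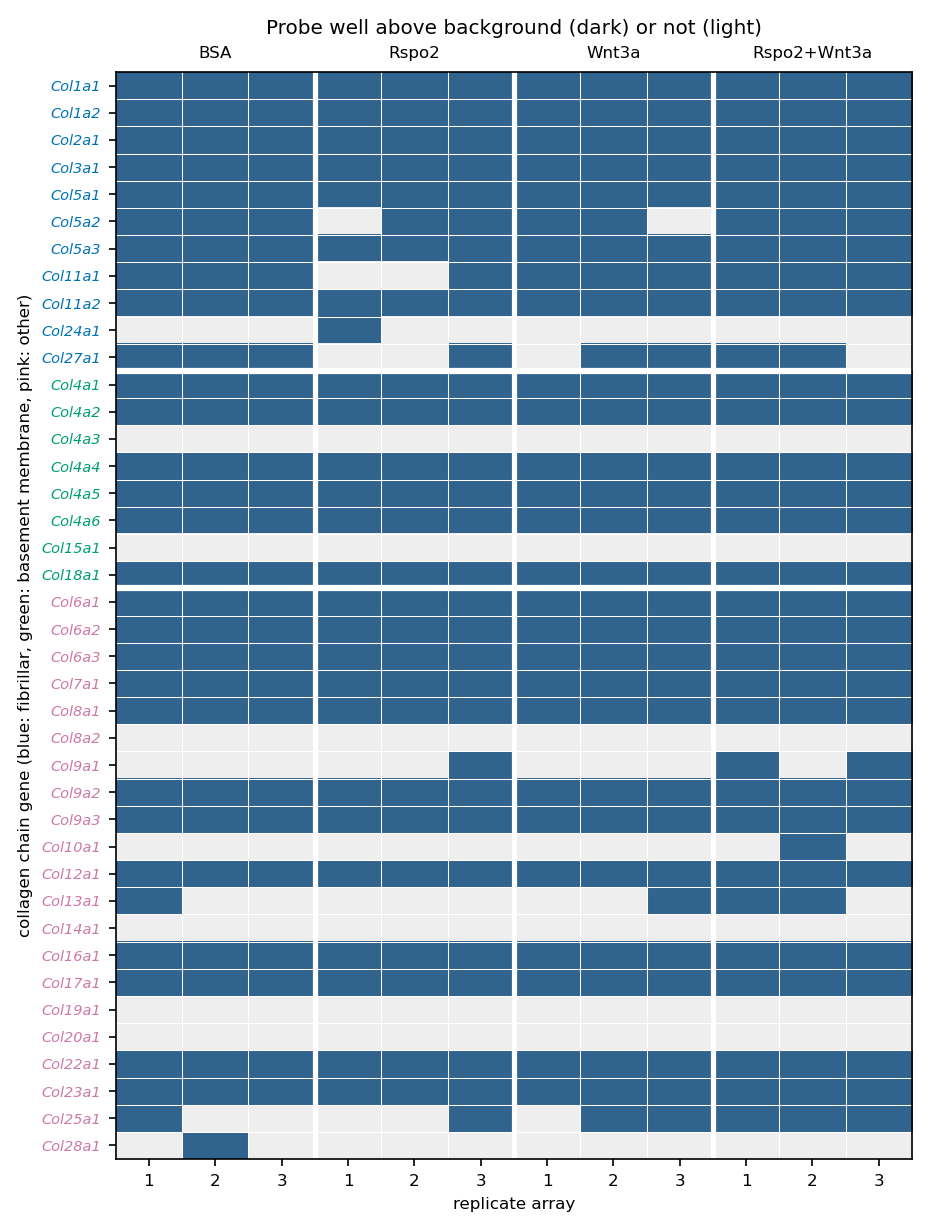
Each row is 1 of the 40 collagen chain genes and each column 1 of the 12 arrays, by group and replicate; dark cells mark probes well above background and light cells probes that were not. In 25 rows all 12 cells are dark, and the light rows are mostly non-fibrillar chains.

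With Rspo2 alone, 6 of the 29 detected genes passed an adjusted p of 0.05 (20.7%, against 16.8% of all probes tested). Of these, 5 were lower (Col1a1, Col5a1, Col5a3, Col16a1 and Col18a1), where 5.92% of all probes were called lower, and Col22a1 was higher on its brightest probe. With Wnt3a alone 11 genes passed (37.9%, against 31.5% of all probes), 10 of them lower, and the share of all probes called lower was 13.2%. With both proteins 12 genes passed (41.4%, against 39.2% of all probes), 11 of them lower against 17.3% of all probes called lower, and the type VII chain gene Col7a1 was higher. The number called was thus close to the background in each comparison, whereas most of the calls were in the lower direction. The median change of the 29 genes was -0.26 after Rspo2, -0.28 after Wnt3a and -0.41 after both on the log2 scale, against 0.01, -0.0003 and 0.04 over all probes. In these comparisons 22, 23 and 22 of the 29 genes were lower than in BSA, as were 48.5%, 50% and 45.6% of all probes. The same BSA arrays served in each comparison, so these counts are not independent.

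At 2-fold or more with an adjusted p under 0.05, Col5a3 was the 1 gene called with Rspo2 (0.721% of all probes) and with Wnt3a (2.52%), and Col5a3, Col16a1 and Col22a1 were called with both (5.08%), all lower. The arrays of the 2 groups did not overlap for 12 genes with Rspo2 (41.4%, against 43.5% of all probes), 15 with Wnt3a (51.7%, against 45.5%) and 16 with both (55.2%, against 54% of all probes). The number of genes at an adjusted p under 0.05 moved with single arrays, and so did the share of all probes. With Rspo2, 2 genes passed without BSA replicate 1, BSA replicate 2 or Rspo2 replicate 3 (2.61%, 4.99% and 2.05% of all probes). Without BSA replicate 3, Rspo2 replicate 2 or combination replicate 2, 3 genes passed (3.54%, 6.2% and 9.92% of all probes). With Wnt3a it was 5 without BSA replicate 1 or Wnt3a replicate 2 (23.6% and 21.8% of all probes) and 6 without Wnt3a replicate 3 (29.4%). With both it was 8 to 13 on leaving out 1 array (29.6% to 42% of all probes).

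**Figure D2:**
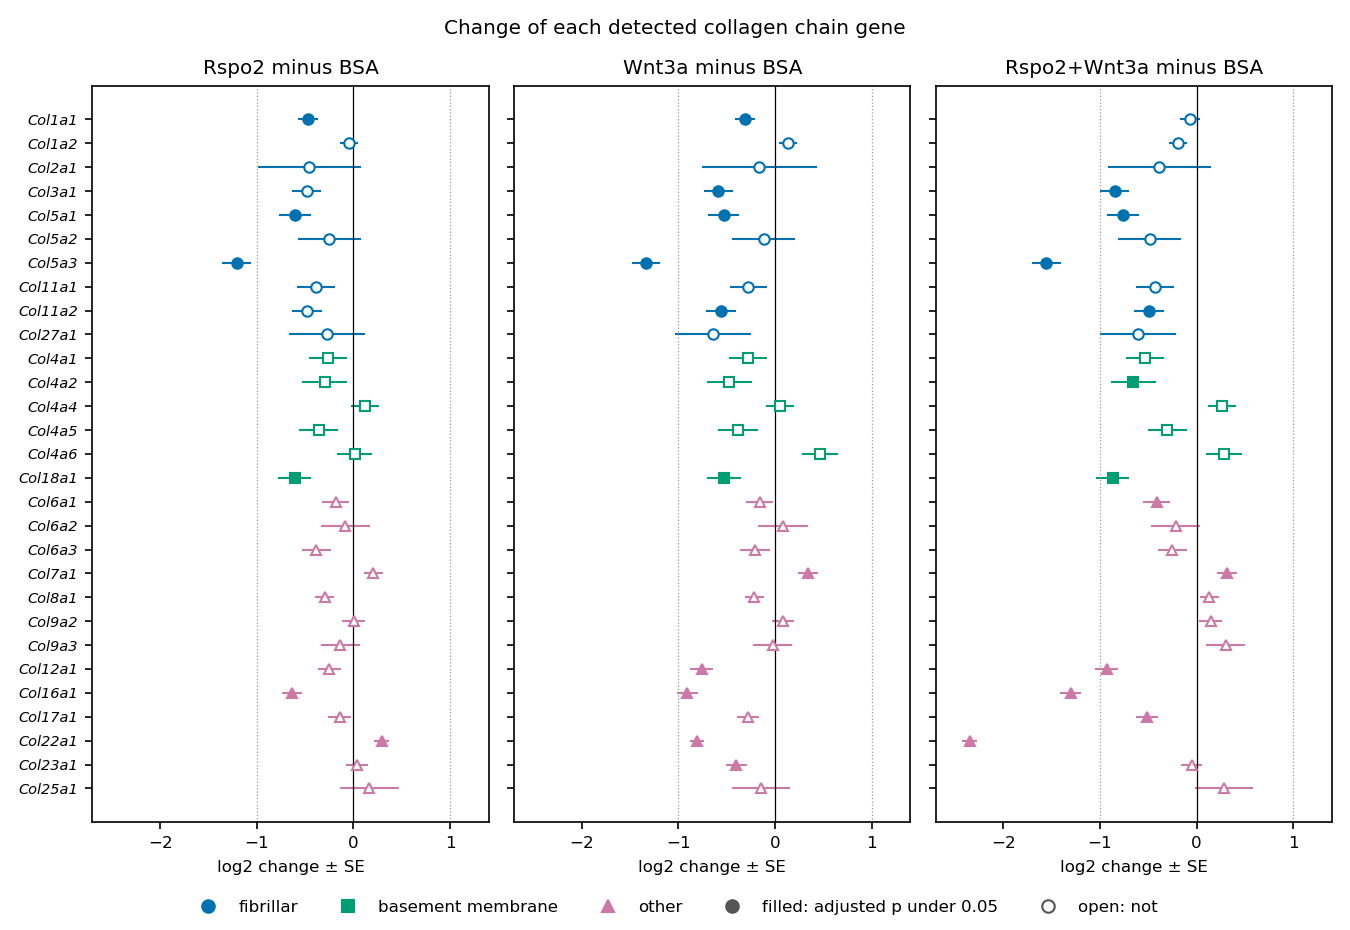
The horizontal axis is the log2 change from BSA with its SE for each of the 29 detected genes, in 3 panels for Rspo2, Wnt3a and both proteins; marker shape and colour give the class, filled markers have an adjusted p under 0.05, and dotted lines mark 2-fold. Most points lie left of 0, and Col5a3, Col16a1 and Col22a1 lie past the dotted line with both proteins.

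All 10 detected fibrillar genes had a lower mean than BSA with Rspo2 and with both proteins, and 9 of 10 with Wnt3a. Over all probes 48.5%, 50% and 45.6% were lower with Rspo2, Wnt3a and both. The median changes of the fibrillar genes were -0.46, -0.42 and -0.49 on the log2 scale. With a different background correction (normexp) 5 of the 10 were lower with Rspo2 and the median was -0.10, while the median with each treatment stayed below 0 under every alternative run. Fibrillar genes called at an adjusted p under 0.05 numbered 3 after Rspo2, 5 after Wnt3a and 4 after both, all lower. These were 30%, 50% and 40% of the 10 genes, against 16.8%, 31.5% and 39.2% of all probes called in either direction.

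Col5a3 encodes the α3 chain of type V collagen, a fibril-forming chain found in fewer tissues than α1 and α2. Its scaled signal was 0.898, 0.882 and 0.804 in the BSA arrays, 0.413, 0.399 and 0.313 after Rspo2, 0.379, 0.331 and 0.315 after Wnt3a and 0.242, 0.294 and 0.353 after both. Every treated array lay below every BSA array, while the 3 treated groups overlapped one another. The log2 change was -1.21 ± 0.15 (2.31-fold lower) after Rspo2, -1.34 ± 0.15 (2.52-fold lower) after Wnt3a and -1.55 ± 0.15 (2.94-fold lower) after both, with adjusted p values of 0.0026, 0.00029 and 2.9e-05 in limma. Each of these calls held on leaving out any 1 array, with a highest adjusted p of 0.015. Within the first slide Rspo2 replicate 1 was lower than the 3 BSA arrays by 1.06 log2 units on average (log2 change -1.06).

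Of the other type V chains Col5a1 passed with each treatment and Col5a2 with none. Col5a1, the α1 chain that is needed for fibril nucleation, had scaled signals of 39.9, 34.6 and 34.9 with BSA, 24.6, 27.1 and 20.5 after Rspo2, 29.6, 24.0 and 22.4 after Wnt3a and 17.0, 23.0 and 25.2 after both. All 9 treated arrays were below the 3 BSA arrays. The log2 change with both was -0.76 ± 0.16 (adjusted p = 0.0042) and held on leaving out any 1 array, but not under normexp (adjusted p = 0.11), with slide as a term (adjusted p = 0.65) or with the mean of its detected probes (-0.50, adjusted p = 0.23). A dimmer Col5a1 probe changed by -0.23 ± 0.49 (adjusted p = 0.75). By contrast, the calls with Rspo2 (-0.61, adjusted p = 0.034) and with Wnt3a (-0.53, adjusted p = 0.030) lay near the threshold. On leaving out 1 array these changes stayed between -0.70 and -0.50 and between -0.65 and -0.45, but the calls did not always hold. The first was lost on leaving out any 1 of the BSA or Rspo2 arrays or combination replicate 2 (adjusted p up to 0.12), and the second any 1 of the BSA arrays, Wnt3a replicate 2 or Wnt3a replicate 3 (adjusted p up to 0.096). Col5a2, the α2 chain, was dim, at 0.0417 to 0.0650 with BSA and 0.0271 to 0.0417 with both, and the groups overlapped (log2 change -0.49 ± 0.33, adjusted p = 0.27).

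Col3a1, the single chain of type III collagen, had scaled signals of 5.04, 4.97 and 5.41 with BSA, 3.56, 4.27 and 3.26 after Rspo2, 3.82, 3.63 and 2.88 after Wnt3a and 2.38, 2.87 and 3.40 after both. No treated array reached the BSA range. Its log2 change was -0.59 ± 0.15 after Wnt3a (adjusted p = 0.014) and -0.85 ± 0.15 after both (adjusted p = 0.0016), and -0.48 ± 0.15 with Rspo2 did not pass (adjusted p = 0.051).

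The chains of type I collagen, the main fibrillar collagen of stroma, were called differently. Col1a1 (the α1 chain) had scaled signals of 74.8, 68.0 and 63.0 with BSA, 53.6, 51.3 and 43.8 after Rspo2, 54.1, 56.8 and 54.9 after Wnt3a and 59.7, 65.6 and 70.7 after both. The Rspo2 and Wnt3a arrays were all below BSA, and the combination arrays overlapped BSA. The log2 change was -0.47 ± 0.10 after Rspo2 (adjusted p = 0.020) and -0.31 ± 0.10 after Wnt3a (adjusted p = 0.038), and -0.07 ± 0.10 in the combination (adjusted p = 0.62). The Rspo2 call was lost without BSA replicate 1, BSA replicate 2 or Rspo2 replicate 3 (adjusted p up to 0.073) and the Wnt3a call on leaving out any 1 of BSA replicates 1 and 2, Rspo2 replicate 2, the Wnt3a arrays and combination replicate 2 (adjusted p up to 0.13). Col1a2 (the α2 chain) had scaled signals of 14.2 to 15.1 in BSA arrays, 13.2 to 15.3 after Rspo2, 14.3 to 17.3 after Wnt3a and 12 to 13.5 in the combination, the 1 group that lay wholly below BSA. Its log2 changes of -0.05, 0.13 and -0.19 passed no test (adjusted p = 0.73, 0.31 and 0.13).

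Of the remaining fibrillar genes, Col11a2, a chain of the type XI fibrils of cartilage, fell with Wnt3a (log2 change -0.56 ± 0.15, adjusted p = 0.020) and with both (-0.49 ± 0.15, adjusted p = 0.027). Col11a1, Col2a1 and Col27a1 had log2 changes between -0.27 and -0.46 with Rspo2, between -0.16 and -0.64 with Wnt3a and between -0.39 and -0.60 with both, none of which passed on the brightest probe of each gene. A dimmer Col2a1 probe, not well above background on Rspo2 replicate 2, passed after Rspo2 (-1.04 ± 0.28, adjusted p = 0.035), after Wnt3a (-1.09 ± 0.28, adjusted p = 0.015) and for the interaction of the treatments (1.58 ± 0.40, adjusted p = 0.038), and had -0.55 in the combination (adjusted p = 0.15). The brighter Col2a1 spot was marked uneven or as an outlier on Wnt3a replicate 1, so its Wnt3a mean rests on 2 arrays. Col11a1 was not well above background on Rspo2 replicates 1 and 2, and Col27a1 was well above background on 1 of 3 Rspo2 arrays.

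Upstream sequence is shown for 4 of the genes that fell with both proteins, Col5a3 and Col16a1, which passed 2-fold, and the fibrillar genes Col5a1 and Col3a1. The table of RefSeq promoter sequences used here (build GRCm38.p6) held 32 of the 40 genes (35 starts) and 7 of the 10 genes described one by one. The windows of Col22a1, Col12a1 and Col1a1 were not analysed here. Each line gives the 250 bases before the annotated start, 5′ to 3′ on the gene's strand. Capitals mark motifs, each searched for on both strands. The first was CCAAT, read on the other strand as ATTGG. The second, a GC box, was GGGCGG, which on the other strand reads CCGCCC. The last was CTTTGAT, on the other strand ATCAAAG.
Col5a3 (chr9:20815068-20815317, minus strand): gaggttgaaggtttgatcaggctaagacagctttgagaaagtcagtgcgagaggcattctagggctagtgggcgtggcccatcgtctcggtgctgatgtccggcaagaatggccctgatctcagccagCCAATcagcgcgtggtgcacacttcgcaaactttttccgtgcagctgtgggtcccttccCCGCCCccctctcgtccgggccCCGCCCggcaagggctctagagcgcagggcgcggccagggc
Col16a1 (chr4:130047590-130047839, plus strand): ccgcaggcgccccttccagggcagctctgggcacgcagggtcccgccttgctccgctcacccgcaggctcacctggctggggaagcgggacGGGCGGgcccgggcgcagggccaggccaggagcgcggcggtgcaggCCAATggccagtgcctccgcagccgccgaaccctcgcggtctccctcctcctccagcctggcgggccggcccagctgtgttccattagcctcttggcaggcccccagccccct
Col5a1 (chr2:27886175-27886424, plus strand): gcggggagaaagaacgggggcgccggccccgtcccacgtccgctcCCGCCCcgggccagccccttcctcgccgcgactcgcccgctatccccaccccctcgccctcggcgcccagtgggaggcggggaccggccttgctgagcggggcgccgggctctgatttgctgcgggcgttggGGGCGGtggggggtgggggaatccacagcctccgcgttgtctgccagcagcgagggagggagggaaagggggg
Col3a1 (chr1:45311288-45311537, plus strand): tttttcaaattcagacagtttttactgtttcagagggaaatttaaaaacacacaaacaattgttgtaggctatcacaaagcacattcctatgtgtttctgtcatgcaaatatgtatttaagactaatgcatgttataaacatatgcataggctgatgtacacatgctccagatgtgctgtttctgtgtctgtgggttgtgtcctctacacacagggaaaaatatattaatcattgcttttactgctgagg
The Col5a3 window held CCAAT at 1 position and GGGCGG at 2, the Col16a1 window 1 of each and the Col5a1 window GGGCGG at 2 positions. The Col3a1 window, with 35.2% G and C against 62.8%, 75.6% and 76.4% in the other windows, held none of the motifs. CTTTGAT, a form of the site bound by TCF/LEF factors, was in 1 of the 35 collagen windows (that of Col9a2) and in 3.21% of 32851 windows of the same length over all genes. CCAAT was in 12 of the 35 windows and 33.8% of all windows, and GGGCGG in 19 of the 35 and 32.7% of all windows.

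**Figure D3:**
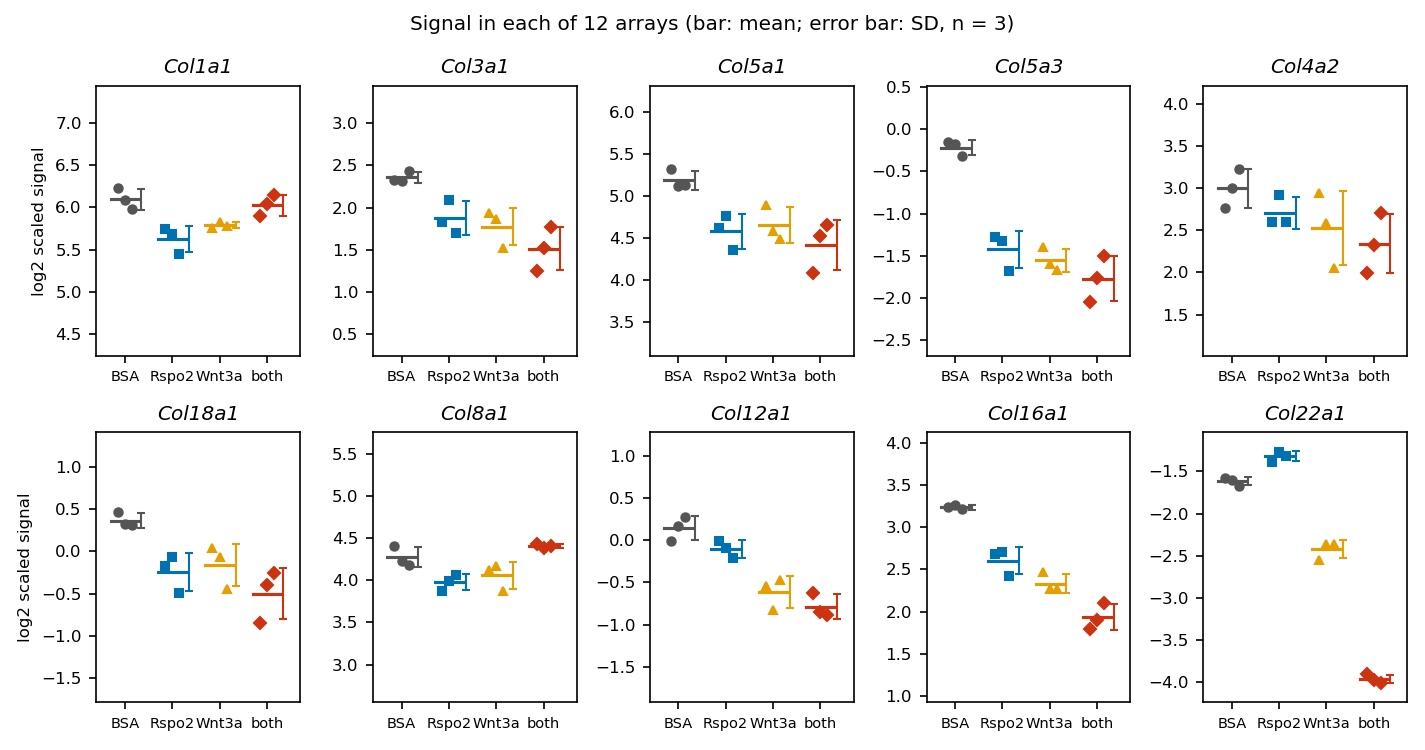
Each panel is 1 of the 10 collagen genes described one by one, with the log2 scaled signal of every array by group on the vertical axis (every panel spans an equal range); the bar is the group mean and the error bar the SD of 3 arrays. The BSA arrays lie above all treated arrays for Col5a3, Col5a1, Col3a1, Col16a1 and Col18a1, and the combination arrays of Col22a1 lie far below the rest.

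Among basement membrane genes, 1 of 6 passed with Rspo2 and with Wnt3a (Col18a1) and 2 of 6 with both (Col18a1 and Col4a2), or 16.7%, 16.7% and 33.3%, against 16.8%, 31.5% and 39.2% of all probes. Their median changes were -0.28, -0.33 and -0.42 on the log2 scale. The type IV chains did not share a direction: Col4a1, Col4a2 and Col4a5 had lower means than BSA with each treatment, and Col4a4 and Col4a6 higher means.

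Col18a1 encodes the chain of type XVIII collagen, whose C-terminal fragment is endostatin. Its scaled signal was 1.38, 1.25 and 1.24 with BSA, 0.889, 0.956 and 0.710 after Rspo2, 1.02, 0.951 and 0.734 after Wnt3a and 0.557, 0.756 and 0.835 after both. Every treated array was below every BSA array. The log2 change with both was -0.87 ± 0.17 (adjusted p = 0.0028) and held on leaving out any 1 array. It did not pass with slide as a term (-0.33, adjusted p = 0.74) or by the t-test of the study's methods (adjusted p = 0.097). The calls with Rspo2 (-0.61 ± 0.17, adjusted p = 0.039) and with Wnt3a (-0.53 ± 0.17, adjusted p = 0.039) lay near the threshold. On leaving out 1 array these changes stayed between -0.70 and -0.48 and between -0.62 and -0.38, but the calls did not always hold. The first was lost on leaving out any 1 of the BSA and Rspo2 arrays, Wnt3a replicate 2 and combination replicate 2 (adjusted p up to 0.14), and the second any 1 of the BSA arrays, Rspo2 replicate 1, Wnt3a replicates 2 and 3 and combination replicate 2 (adjusted p up to 0.12).

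Col4a1 and Col4a2 encode the chains of the common type IV heterotrimer and lie head to head on chromosome 8, with annotated starts 21 bases apart in GRCm38.p6. Col4a2 had scaled signals of 6.80, 8.03 and 9.37 with BSA and 3.99, 5.01 and 6.52 with both, and the groups did not overlap. The log2 change was -0.66 ± 0.23 (adjusted p = 0.045), and the call was lost on leaving out any 1 of BSA replicates 2 and 3, the Rspo2 arrays, Wnt3a replicate 2 and combination replicates 1 and 2 (adjusted p up to 0.16). Col4a1 had scaled signals of 6.48, 7.20 and 8.03 with BSA and 4.39, 4.66 and 6.03 with both, with a log2 change of -0.53 ± 0.20 that did not pass (adjusted p = 0.052). With the single proteins the log2 changes of these chains lay between -0.26 and -0.47, with arrays that overlapped BSA. Col4a6 had a log2 change of 0.47 ± 0.19 with Wnt3a (adjusted p = 0.077), with no overlap of the arrays.

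The class of other collagens held the gene with the largest change with both proteins, Col22a1. Of the 13 detected, 2 passed an adjusted p of 0.05 after Rspo2, 5 after Wnt3a and 6 after both, or 15.4%, 38.5% and 46.2%, against 16.8%, 31.5% and 39.2% of all probes. Their median changes were -0.14, -0.21 and -0.22 on the log2 scale, and turned positive under normexp for Rspo2 (0.16) and with slide as a term for both proteins (0.08).

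Col22a1 encodes a FACIT chain known from tissue junctions such as the myotendinous junction. Its scaled signal was 0.336, 0.329 and 0.314 with BSA, 0.383, 0.416 and 0.401 after Rspo2, 0.171, 0.195 and 0.195 after Wnt3a and 0.0667, 0.0638 and 0.0621 after both. On this brightest probe the 4 groups were fully separated, with Rspo2 above BSA, Wnt3a below it and the combination lowest. The log2 change was -2.35 ± 0.08 with both (5.09-fold lower, adjusted p = 2.7e-08), -0.81 ± 0.08 after Wnt3a (adjusted p = 0.00013) and 0.29 ± 0.08 after Rspo2 (adjusted p = 0.030). The Rspo2 call was lost on leaving out any 1 of the BSA arrays, Rspo2 replicates 2 and 3 and combination replicate 2 (adjusted p up to 0.095), and the other calls held. Within the third slide the combination arrays were 1.60 log2 units below Wnt3a replicate 3 (log2 change -1.60), and within the second slide the Wnt3a arrays were 1.16 below the Rspo2 arrays (-1.16).

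Col22a1 had a dimmer detected probe, which gave a different pattern. Its scaled signal was 0.0479, 0.0617 and 0.0505 with BSA, 0.0375, 0.0392 and 0.0574 after Rspo2, 0.0237, 0.00978 and 0.0324 after Wnt3a and 0.0305, 0.0318 and 0.0289 after both. It was well above background on all 3 BSA arrays, on 2 of 3 arrays with Rspo2 and with both, and on 0 of 3 with Wnt3a, where its level is only a bound. The log2 change with both was -0.80 ± 0.35 (adjusted p = 0.091), with all 3 combination arrays below all 3 BSA arrays. Both probes thus read lower with both proteins than with BSA, but the dimmer probe did not place the combination below Wnt3a. The rise with Rspo2 was not seen on the dimmer probe, where the log2 change was -0.27 ± 0.35 (adjusted p = 0.61). With the mean of both probes the change with Rspo2 was 0.009 (adjusted p = 0.98).

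Col16a1 and Col12a1 encode further FACIT chains. Col16a1 had scaled signals of 9.42, 9.64 and 9.26 with BSA, 6.43, 6.54 and 5.36 after Rspo2, 5.52, 4.81 and 4.82 after Wnt3a and 3.48, 3.74 and 4.31 after both. The BSA arrays were highest and the combination arrays lowest, with no overlap of either with another group. The log2 change was -0.63 ± 0.11 after Rspo2 (adjusted p = 0.0099), -0.91 ± 0.11 after Wnt3a (adjusted p = 0.00041) and -1.30 ± 0.11 after both (2.47-fold lower, adjusted p = 1.0e-05), and each call held on leaving out any 1 array. Col12a1 had scaled signals of 0.991, 1.12 and 1.21 with BSA, 0.995, 0.935 and 0.862 after Rspo2, 0.686, 0.562 and 0.722 after Wnt3a and 0.650, 0.556 and 0.539 after both. The arrays with Wnt3a, alone or combined, were below all others, and Rspo2 overlapped BSA. Its log2 change was -0.76 ± 0.12 with Wnt3a (adjusted p = 0.0017), -0.93 ± 0.12 with both (adjusted p = 0.00023) and -0.25 ± 0.12 with Rspo2 (adjusted p = 0.17).

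Col7a1, the chain of anchoring fibrils that tie the basement membrane to the stroma below, was the 1 collagen gene called higher with Wnt3a and with both. It had scaled signals of 1.48, 1.57 and 1.30 with BSA, 1.63, 1.71 and 1.66 after Rspo2, 1.66, 1.98 and 1.88 after Wnt3a and 1.97, 1.79 and 1.63 after both. Each treated array exceeded each BSA array, by a log2 change of 0.34 ± 0.10 after Wnt3a (adjusted p = 0.026) and 0.31 ± 0.10 after both (adjusted p = 0.031). With Rspo2 the change of 0.21 ± 0.10 did not pass (adjusted p = 0.17). Col7a1 passed in no comparison with BSA without BSA replicate 1 or 3, under normexp, or with slide as a term or random block. Its Wnt3a call was also lost without Wnt3a replicate 2 or 3, and its call with both without combination replicate 1 or 2.

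The transmembrane chain gene Col17a1, a component of hemidesmosomes, fell with both (log2 change -0.52 ± 0.11, adjusted p = 0.0051), and Col23a1, also transmembrane, fell with Wnt3a (-0.40 ± 0.11, adjusted p = 0.020). Of the type VI chains, Col6a1 fell with both (-0.41 ± 0.14, adjusted p = 0.037), whereas Col6a2 (-0.22) and Col6a3 (-0.25) did not pass. Col9a2, Col9a3 and Col25a1 passed in no comparison, with log2 changes from BSA between -0.15 and 0.30.

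Against Wnt3a alone, 1 of the 29 collagen genes passed an adjusted p of 0.05 with the combination (3.45%, against 4.27% of all probes, 2.49% lower), the lower Col22a1, with a log2 change of -1.54 ± 0.08 (2.91-fold lower, adjusted p = 3.1e-06; 0.747% of all probes passed 2-fold). After adjustment 2 genes passed without Rspo2 replicate 3, Wnt3a replicate 1, Wnt3a replicate 3 or combination replicate 3. The share of all probes that passed in these fits was 4.14%, 2.74%, 9.41% and 2.68%. On the dimmer Col22a1 probe the change was 0.63 ± 0.35 (adjusted p = 0.37), against a Wnt3a level that is only a bound, and with the mean of both probes it was -0.45 (adjusted p = 0.21). With the mean of a gene's detected probes the 1 gene that passed was instead Col8a1, which was higher (0.50 ± 0.08, adjusted p = 0.0073), and its dimmer probe had 0.64 ± 0.10 (adjusted p = 0.0045). The median of the 29 genes was -0.18 against 0.004 over all probes.

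The interaction term is the change with Rspo2 in the presence of Wnt3a minus the change with Rspo2 in its absence, and is 0 where the separate changes add up on the log2 scale. It passed for 4 of the 29 genes (13.8%, against 8.9% of all probes), below 0 for Col22a1 (5.31% of all probes) and above 0 for Col5a3, Col1a1 and Col8a1 (3.58%), and at 2-fold for Col22a1 (1.93% of all probes). The median over the 29 genes was 0.23, against -0.003 over all probes. Of the 29 genes 21 were above 0 and 8 below, where 50.3% of all probes were below 0. Col22a1 fell by more than the sum of its separate changes, with an interaction of -1.83 ± 0.11 (adjusted p = 3.5e-05). Col5a3 fell by less, with 0.99 ± 0.21 (adjusted p = 0.021), and Col1a1, lower with each protein but near BSA with both, had 0.71 ± 0.14 (adjusted p = 0.018). The Col5a3 call was lost without Wnt3a replicate 2 or combination replicate 2 (adjusted p up to 0.056) and the Col1a1 call without combination replicate 2 (adjusted p = 0.0503), where Col22a1 was the 1 gene that passed. The dimmer Col22a1 probe had 0.91 ± 0.49 (adjusted p = 0.25), against a Wnt3a level that is only a bound, so that its sign is not settled, and the dimmer Col1a1 probes had the same sign as the brightest (0.93 and 1.5). With the mean of a gene's detected probes Col22a1 did not pass (-0.46, adjusted p = 0.25), and the 1 gene called at 2-fold was Col1a1 (1.05, adjusted p = 0.025).

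Col8a1 encodes a short-chain collagen of sheet-like networks. It had scaled signals of 21.3, 18.7 and 18.2 with BSA, 14.7, 15.9 and 16.8 after Rspo2, 17.4, 18 and 14.7 after Wnt3a and 21.5, 20.8 and 21.2 after both. The Rspo2 and Wnt3a arrays were all below BSA and the combination arrays overlapped it. The interaction was 0.64 ± 0.14 (adjusted p = 0.023) and lost the call without Rspo2 replicate 2 or combination replicates 2 or 3 (adjusted p up to 0.056). A dimmer probe gave 3.96, 3.37 and 3.15 with BSA, 2.68, 2.41 and 2.22 after Rspo2, 2.61, 2.87 and 2.70 after Wnt3a and 4.10, 4.34 and 4.33 after both. On that probe the combination exceeded all other arrays, and the interaction was 1.16 ± 0.14 (adjusted p = 0.0017).

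**Figure D4:**
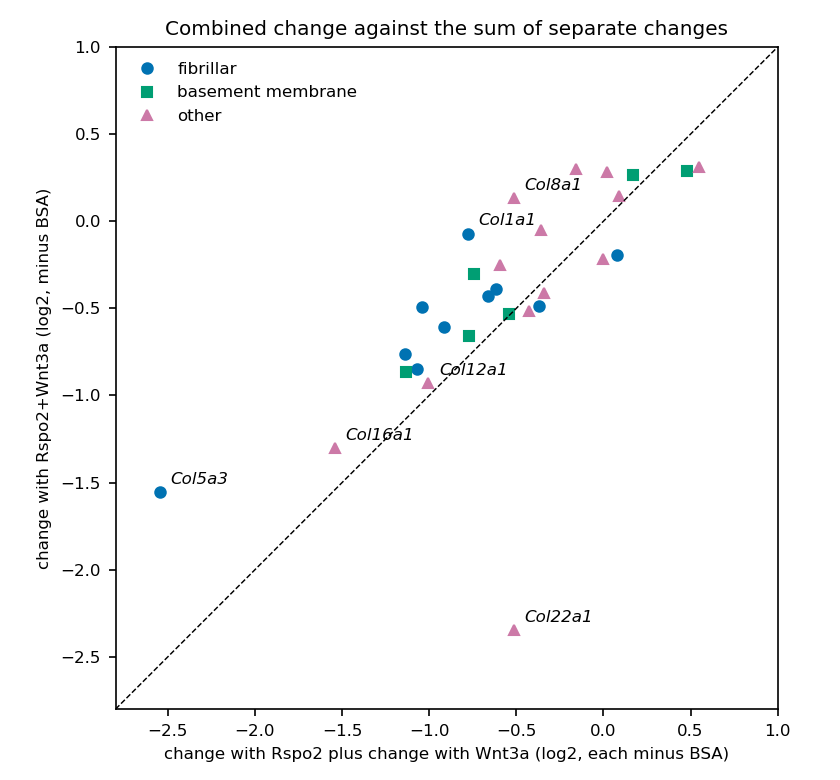
For each of the 29 detected collagen genes the horizontal axis is the summed log2 changes of the Rspo2 and Wnt3a groups, each minus BSA, and the vertical axis the log2 change with both; the dashed line marks equality. Most genes, 21 of 29, lie above the line, and Col22a1 lies far below it, at -2.35.

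Of the detected collagen genes 12 had more than 1 detected probe. The probes of a gene had the same sign of change in 10 of 12 genes after Rspo2, 11 after Wnt3a and 10 after both. The median distance between the highest and the lowest probe of a gene was 0.22, 0.36 and 0.17 log2 units in these comparisons and 0.44 for the interaction.

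**Figure D5:**
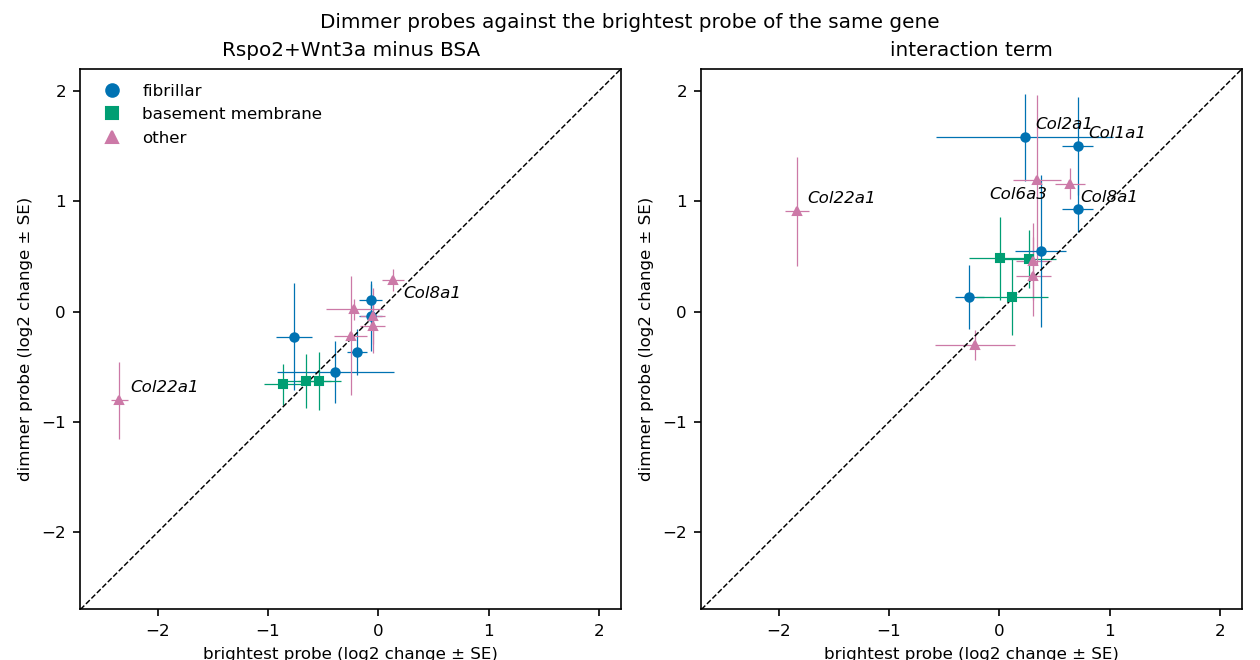
Each point is a dimmer detected probe of a collagen gene, with the log2 change of that probe on the vertical axis and of the gene's brightest probe on the horizontal axis, each with its SE, for both proteins minus BSA (left) and for the interaction (right); the dashed line marks equality. Col22a1 stands off the line in both panels, at -2.35 against -0.80 on the left and -1.83 against 0.91 on the right, where the dimmer probe rests on a Wnt3a level that is only a bound.

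Collagen chains are hydroxylated, folded, secreted, trimmed and crosslinked by dedicated proteins, and cells bind them through integrins and other receptors. Of 45 such genes on the array 35 were detected, and at an adjusted p under 0.05 these passed in 4 cases with Rspo2 (3 lower), 10 with Wnt3a (7 lower) and 22 with both (14 lower, 8 higher). The corresponding shares were 11.4%, 28.6% and 62.9%, against 16.8%, 31.5% and 39.2% of all probes. At 2-fold with both proteins 6 genes passed (17.1%, against 5.08% of all probes): P3h2, Adamts2, Itga10, Itga11 and Mrc2 were lower and P3h4 higher. The median changes of the 35 genes were -0.12, -0.18 and -0.19 on the log2 scale.

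P3h2, a prolyl 3-hydroxylase that acts on collagen chains, had scaled signals of 3.45, 3.48 and 3.35 with BSA, 2.50, 2.47 and 2.34 after Rspo2, 1.72, 1.51 and 1.78 after Wnt3a and 0.989, 1.10 and 0.968 after both. The groups were fully separated, and the log2 change was -0.49, -1.04 and -1.75 (adjusted p = 0.0099, 4.7e-05 and 2.7e-07). The related P3h1 and P3h3 fell with both (-0.47 and -0.46). P3h4, whose product works with lysyl hydroxylase, had a log2 change of 1.99 ± 0.53 with both (adjusted p = 0.012) against BSA arrays of which 1 of 3 was well above background. The P3h4 call was lost under normexp (adjusted p = 0.83), with slide as a term (adjusted p = 0.45) and by the methods' t-test (adjusted p = 0.18). Its lowest change under an alternative was 0.31. The prolyl 4-hydroxylase subunit gene P4ha2 fell slightly with Wnt3a (-0.27, adjusted p = 0.041) and both (-0.32, adjusted p = 0.016), while P4ha1 (0.02) and the lysyl hydroxylase gene Plod2 (0.005) did not pass with both.

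Of the 8 detected folding and export genes 4 rose with both proteins and 1 fell (62.5% called, against 39.2% of all probes). Serpinh1, the collagen-specific chaperone HSP47, had scaled signals of 76.2 to 82.1 in BSA arrays, 88.4 to 92.0 after Rspo2, 94.2 to 103 after Wnt3a and 96.1 to 102 in the combination. Its arrays with each treatment were above all BSA arrays, and it rose with Wnt3a (0.29 ± 0.07, adjusted p = 0.0088) and both (0.32 ± 0.07, adjusted p = 0.0041). The procollagen N-propeptidase gene Adamts2 fell with Wnt3a (-0.77 ± 0.15, adjusted p = 0.0039) and both (-1.62 ± 0.15, 3.08-fold lower, adjusted p = 2.3e-05), and the C-propeptidase gene Bmp1 fell with both (-0.56, adjusted p = 0.0059). The crosslinking enzyme gene Lox rose with Wnt3a (0.31, adjusted p = 0.016) and both (0.49 ± 0.08, adjusted p = 0.0011), and its relative Loxl1 fell with both (-0.60, adjusted p = 0.0022).

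Of the 8 detected receptor genes 5 fell and 1 rose with both proteins (75% called, against 39.2% of all probes, 17.3% lower). Itga11, the integrin α11 subunit that binds fibrillar collagen, had scaled signals of 10.6, 9.69 and 9.46 with BSA, 7.97, 9.03 and 6.31 after Rspo2, 6.12, 5.97 and 4.88 after Wnt3a and 1.87, 2.56 and 2.89 after both. The combination arrays were lowest, 4.12-fold below BSA (log2 change -2.04 ± 0.17, adjusted p = 1.3e-05) and 2.34-fold below Wnt3a (-1.23, adjusted p = 0.0023). Its partner Itgb1 had 8.69, 8.91 and 9.06 with BSA and 12.6, 11.9 and 12.5 with both, a rise of 0.48 ± 0.06 (adjusted p = 0.00025), and its interaction of 0.50 also passed (adjusted p = 0.010). Itga10 fell with each treatment (-1.64, -1.33 and -1.09), although with Rspo2 it was well above background on 1 of 3 arrays and the change there was 0.07 under normexp. Its call with both was lost without BSA replicate 2 or combination replicates 2 or 3 (adjusted p up to 0.079). The call with Rspo2 was lost without BSA replicate 1 (adjusted p = 0.052). The endocytic collagen receptor gene Mrc2 fell with both (-1.09 ± 0.22, adjusted p = 0.0032), and the collagen receptor kinase gene Ddr2 did not pass (0.07, adjusted p = 0.64).

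Of the 6 detected mesenchymal markers 3 fell with both proteins, where 39.2% of all probes were called and 17.3% were called lower. Pdgfra, the platelet-derived growth factor receptor α, changed by -0.56, -0.81 and -1.37 log2 units with Rspo2, Wnt3a and both (adjusted p = 0.015, 0.00088 and 8.8e-06). With both, Pdgfrb changed by -0.60 (adjusted p = 0.0015) and the proteoglycan gene Dcn by -0.90 (adjusted p = 0.0050), whereas Vim (0.17), Cdh2 (0.07) and Fn1 (-0.32) did not pass. The basal markers Acta2 (0.78, adjusted p = 7.3e-05) and Krt14 (1.24, adjusted p = 8.3e-06) rose with both, Trp63 fell (-0.40, adjusted p = 0.014) and Krt5 did not pass (0.22, adjusted p = 0.39). With the single proteins Krt5 fell (-0.84 with Rspo2, adjusted p = 0.021, and -0.57 with Wnt3a, adjusted p = 0.041). Krt14 did not pass with Rspo2 (0.06, adjusted p = 0.71) and rose with Wnt3a (0.66, adjusted p = 0.0013). The luminal keratin Krt8 fell with both (-1.15, adjusted p = 0.00037). Of the endothelial markers Cdh5 was detected, while Kdr was well above background on 0 arrays and Pecam1 on 1. Their summed scaled signal was 2.43 to 2.59 with BSA, 1.83 to 1.88 after Rspo2, 1.64 to 1.85 after Wnt3a and 1.63 to 1.74 after both, so no treated array overlapped BSA, and Cdh5 fell after each treatment (-0.41, -0.49 and -0.55, adjusted p = 0.012, 0.0013 and 0.00026). Of the 4 leukocyte markers Csf1r and Cd68 were detected, with Ptprc and Adgre1 well above background on 1 array each, and the list summed to 0.300 to 0.327 with BSA, 0.339 to 0.427 after Rspo2, 0.294 to 0.350 after Wnt3a and 0.239 to 0.333 after both. Neither of the 2 milk protein genes was detected. The part of cell makeup in the collagen changes was not tested.

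Because slide and treatment were largely confounded, a fit with slide as a term estimated the changes from few arrays: Col22a1 stayed lower with both (-2.53, adjusted p = 0.00056), while Col5a3 (-1.16, adjusted p = 0.14) and Col16a1 (-1.09, adjusted p = 0.069) did not pass. With normexp background correction Col5a3, Col16a1 and Col22a1 were called lower with both (adjusted p = 0.010, 0.0032 and 0.0018), and no collagen gene passed with Rspo2 or Wnt3a alone.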

How the data were processed

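RNA of 12 C57MG samples in 4 groups of 3 was hybridised to one-colour 4x44K mouse arrays. The deposited scanner files hold processed signal intensity from Agilent Feature Extraction 9.5.3.1, background-subtracted and detrended within each array, and a flag for probes clearly above background. A value table deposited by the authors holds ratios, each array divided by its 75th percentile, which served as an alternative. Intensities were divided by each array's 75th percentile over probes other than controls, spots marked uneven or as outliers were left out (1327 of 520548 spot values), spots of a probe were averaged, and log2 values were fitted in limma 3.58.1 under R 4.3.3 with all 4 groups in 1 fit. A probe was tested if marked well above background throughout the 3 arrays of any group. P-values were adjusted by Benjamini-Hochberg over all 22751 probes tested, and a gene was called changed at 2-fold with an adjusted p under 0.05. All replicates were labelled biological, and the number of arrays limits the precision.

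Genes with an adjusted p under 0.05 and 1.5-fold in any of 5 comparisons were described one by one. Assembly and receptor genes were named where called changed, and Serpinh1, P4ha1, P4ha2, Plod2, Lox, Ddr2 and Itgb1 in any case; others from these lists and the markers were named after their values were seen. The members and lists were chosen with earlier results of these data known. Alternatives covered background correction, scaling, the value table, filters, slide, replicate block, the samples in the fit, the methods' t-test, probe choice and single arrays. The fit was tested on simulated data of 22712 probes. A change counted as recovered at an adjusted p under 0.05, with no fold required. With both proteins against BSA the fit recovered 83.6% of 2-fold changes, and for the interaction 64.2%. Recovery under the rule that also asks for 2-fold was not measured. Of 1.5-fold changes it recovered 47.8% for Rspo2, 56.7% for Wnt3a, 58.2% for both and 16.4% for the interaction, so changes of that size could be missed. The simulated arrays had independent noise, no slide effect and few changed probes, unlike these data, so the recovered shares need not hold here. Figures were drawn with matplotlib 3.10.9.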

Additional observations from a re-analysis of the deposited data

Results flagged for a closer look

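For 4 collagen genes the change with Rspo2 in the presence of Wnt3a differed from that in its absence by the test of the interaction in limma. The difference was -1.83 log2 units for Col22a1 (adjusted p = 3.5e-05), 0.990 for Col5a3 (adjusted p = 0.021), 0.709 for Col1a1 (adjusted p = 0.018) and 0.643 for Col8a1 (adjusted p = 0.023). The groups of 3 arrays were too small for the test for single outlying samples.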

How the results depend on the processing

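The 10 collagen genes described one by one, chosen because they passed, gave 1330 results under the alternatives. Of these, 1126 kept their direction and side of the threshold, 173 lost the call, 18 gained it and 13 changed sign, none of the last from a called value. Only results called in the main fit could lose a call, and those that kept their side include uncalled results that stayed uncalled. Main counts of collagen genes changed at 2-fold were 1 with Rspo2, 1 with Wnt3a, 3 with both, 1 for both against Wnt3a and 1 for the interaction. The Rspo2 count was 0 under normexp, with slide as a term, by the methods' t-test and without the 4 arrays of the second slide (an alternative chosen after seeing the data). The Wnt3a count was 0 under normexp and with slide as a term, and 2 under quantile normalization, the 75th percentile over probes detected on all arrays, no filter on dim probes and the mean of a gene's probes. With both it was 1 with slide as a term, and 4 under quantile normalization (Col5a1 added) and with the other percentile (Col12a1 added). It was also 4 with a looser flag for detection (Col28a1 added) and with no filter on dim probes (Col14a1 added). Neither Col28a1 nor Col14a1 was detected by the main rule. For both against Wnt3a it was 0 under normexp, the t-test and the probe mean, and for the interaction 0 under normexp and 2 with the other percentile, and 1 with the probe mean, Col1a1 in place of Col22a1. With no requirement of fold the counts were 6, 11, 12, 1 and 4. Without single arrays they were 1 to 1, 1 to 1, 3 to 4, 1 to 1 and 1 to 2, the 2 (Col5a3 added) without BSA replicate 3, Rspo2 replicate 1, Rspo2 replicate 2, Wnt3a replicate 1 or combination replicate 1.

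The assembly and receptor counts at 2-fold were 1, 2, 6, 1 and 1. They were 0, 1, 0 and 0 under normexp for all but both against BSA, 0, 1, 1, 0 and 0 with slide as a term, 0, 1, 3 and 0 by the t-test (not run for the interaction), and 0, 1, 0 and 0 without the second slide for all but both against BSA. With Rspo2 and the interaction they were 0 without the filter and with probes detected on all 12 arrays only (Wnt3a 1), and the interaction was 0 with the looser flag or slide as a random block. With no requirement of fold they were 4, 10, 22, 5 and 4. Without single arrays they were 0 to 1 (0 without BSA replicate 1), 1 to 3 (1 without Wnt3a replicate 2), 5 to 6, 1 to 1 and 0 to 2 (2 without Rspo2 replicate 3 or Wnt3a replicate 3, and 0 without any of 7 other arrays). The cause of these shifts was not tested.

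Signs changed as follows. The Col12a1 interaction was -0.17 with slide as a term or without the second slide, and without single arrays -0.0324 to 0.15, below 0 without Wnt3a replicate 2 or combination replicate 1. Col1a1 with both was 0.0188 under normexp and 0.12 with slide as a term, and Col8a1 with both -0.15 under quantile normalization. Col4a2 for both against Wnt3a was 0.29 with slide as a term or without the second slide and without single arrays -0.42 to 0.0231, above 0 without Wnt3a replicate 1. Its interaction was then -0.12 to 0.32, below 0 without BSA replicate 3, Wnt3a replicate 3 or combination replicate 3. Itga10 was 0.0710 with Rspo2 and -0.15 for the interaction under normexp, and for both against Wnt3a -0.0833 under normexp, -0.13 with slide as a term or without the second slide and -0.15 to 0.47 without single arrays, below 0 without combination replicate 1. The Mrc2 interaction was 0.16 with slide as a term or without the second slide and 0.0227 with the probe mean, and Mrc2 with Rspo2 was -0.27 to 0.0632 without single arrays, above 0 without BSA replicate 3. The P3h2 interaction was 0.0596 under normexp. P3h4 with Rspo2 was 0.69 under normexp, 0.41 under quantile normalization and -0.61 to 0.60 without single arrays, above 0 without BSA replicate 1, Rspo2 replicate 1 or Rspo2 replicate 3, and its interaction was -0.41 under normexp.

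Normexp moved the median of all probes to 0.15 with Rspo2 and -0.16 for the interaction and called 4, 109 and 1051 probes at an adjusted p under 0.05 with Rspo2, Wnt3a and both. The other percentile moved it to -0.12 with Wnt3a and 0.10 for the interaction, and no filter to -0.16 with Wnt3a and -0.20 with both. At an adjusted p under 0.05, 0, 1 and 1 collagen genes passed with slide as a term (0.431%, 0.796% and 2.51% of all probes). With slide as a random block 4, 7 and 8 passed (9.9%, 23.1% and 29.1% of all probes). Replicate numbers did not pair the samples (same-numbered deviations correlated at -0.41 to 0.27, with 4 of 18 pairs over 0.1). With a replicate block the 2-fold counts stayed 1, 1, 3, 1 and 1. Without a fold requirement 2, 9 and 10 collagen genes then passed against 6, 11 and 12 (3.56%, 25.6% and 33.3% of all probes against 16.8%, 31.5% and 39.2%).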
